A study of Mus musculus with 16 samples.

Results

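A set of 10 genes that equip the inner wall of blood vessels to catch white blood cells was followed through 16 hippocampal RNA-seq libraries of 3-month-old mice. The 10 genes, Selp, Sele, Icam1, Icam2, Vcam1, Lrg1, Ch25h, Ackr1, Vwf and Esam, were taken by symbol as a named set of endothelial adhesion and activation genes, and all 10 were found among the 19449 genes listed. The set was chosen with earlier results of these data known. Counts of its members beside the share of all genes are therefore descriptions only. The libraries fell into 4 groups of 4: Tspo knockout mice injected with LPS (KO LPS), Tspo knockout mice injected with PBS (KO PBS), wild-type mice injected with LPS (WT LPS) and wild-type mice injected with PBS (WT PBS). Tspo encodes the translocator protein of the outer mitochondrial membrane, LPS is bacterial lipopolysaccharide, which sets off inflammation through the receptor TLR4, and PBS is the saline vehicle. The dose, the route, the time after injection, the strain and the knockout allele are not given in the sources used here, and no label says whether each library came from a separate animal, so p-values measure the spread between libraries, which may be technical. The comparisons address how LPS changed the hippocampal transcriptome in each genotype and how the genotypes differed under each injection.

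Activated endothelium captures leukocytes in steps. The selectins P-selectin (Selp) and E-selectin (Sele) slow a passing cell, the immunoglobulin-family molecules ICAM-1, ICAM-2 and VCAM-1 hold it through its integrins, and junction proteins such as ESAM shape its passage through the wall. P-selectin and von Willebrand factor (Vwf) are stored together in the Weibel-Palade bodies of endothelial cells. LRG1 is a secreted glycoprotein that acts on TGF-beta signalling in vessels, CH25H is the enzyme that makes 25-hydroxycholesterol, and ACKR1 is a chemokine-binding receptor of venules that does not signal through G proteins. In brain these genes are not all exclusive to endothelium: VCAM-1 is also made by neural stem cells and astrocytes, ICAM-1 and CH25H by activated microglia, and P-selectin and von Willebrand factor also by platelets and their precursors.

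Start regions are shown for Selp, Sele and Icam1, the adhesion genes of this set with a RefSeq promoter entry, so that the letters upstream of the 3 can be set beside their levels. RefSeq gave such a region for 6 of the 10 genes (Selp, Sele, Icam1, Lrg1, Ch25h and Ackr1), 250 bases before and 50 bases after the start on GRCm38.p6. The Selp region is chr1:164115014-164115313, the Sele region chr1:164047984-164048283 and the Icam1 region chr9:21015690-21015989, all on the plus strand. The RefSeq start used for Icam1, 21015940, lies 45 bases before the GENCODE start of 21015985 given for the gene in the results, while the starts of Selp and Sele are the same in both. Capitals mark matches to the STAT-type motif TTCNNNGAA and to the AP-1 motif TGANTCA, searched on both strands.
Selp: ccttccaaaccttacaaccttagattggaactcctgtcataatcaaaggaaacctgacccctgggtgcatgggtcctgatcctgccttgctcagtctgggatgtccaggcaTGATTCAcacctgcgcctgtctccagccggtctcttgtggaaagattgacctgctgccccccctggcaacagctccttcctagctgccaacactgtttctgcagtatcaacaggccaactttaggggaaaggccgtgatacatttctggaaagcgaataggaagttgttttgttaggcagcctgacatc
Sele: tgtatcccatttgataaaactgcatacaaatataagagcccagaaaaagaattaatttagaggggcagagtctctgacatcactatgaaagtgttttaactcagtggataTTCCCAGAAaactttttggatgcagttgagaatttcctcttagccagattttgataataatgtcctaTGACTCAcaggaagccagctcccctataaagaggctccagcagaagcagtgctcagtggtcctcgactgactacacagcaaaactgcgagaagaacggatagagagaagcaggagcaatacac
Icam1: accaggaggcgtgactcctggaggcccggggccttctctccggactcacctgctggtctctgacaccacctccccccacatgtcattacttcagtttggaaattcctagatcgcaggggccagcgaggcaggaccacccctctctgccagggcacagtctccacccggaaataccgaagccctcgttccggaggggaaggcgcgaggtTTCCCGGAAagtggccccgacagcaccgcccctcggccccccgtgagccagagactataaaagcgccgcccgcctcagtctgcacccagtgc
The STAT-type motif was present in 2 of the 6 regions, as TTCCCGGAA beginning at position -42 relative to the RefSeq start in Icam1 and as TTCCCAGAA at position -140 in Sele, and in 8.30% of 32851 RefSeq promoters of the same length examined. The AP-1 motif was present in 2 of 6, as TGATTCA at position -139 in Selp and as TGACTCA at position -73 in Sele, and in 7.81% of all promoters. TATAAA was found in 4 of 6 regions (Sele, Icam1, Lrg1 and Ch25h) and in 13.6% of all. It began at position -49 in Sele, -151 in Ch25h, 14 in Icam1 and 12 in Lrg1, so in Icam1 and Lrg1 it lay after the RefSeq start. The NF-kappaB consensus was found in 0 of 6 and in 8.46% of all promoters, and the interferon-stimulated response element in 0 of 6 and in 3.44%. The letters of the NF-kappaB pattern searched are not given here. Its 0 of 6 does not show that a variant site is absent. None of the marked matches overlapped another of the motifs searched. A match in letters is a description of the window only.

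Before the members are described, facts of the whole series bear on every value. Library totals ran from 30198619 to 50009041 counts. Levels are given as CPM, the count as a share of the library size after TMM scaling between libraries, and intervals on counts cover counting error only because the reads carry no molecular identifiers. Tspo itself was at 0.209 to 0.486 CPM in KO LPS and at 0.152, 0.28 and 0.47 CPM in 3 KO PBS libraries, against 2.63 to 11.9 CPM in WT LPS and 2.06 to 5.17 CPM in WT PBS. The library labelled KO PBS replicate 1 had 2.33 CPM of Tspo, inside the WT PBS range, which goes against its label. Lcn2, which encodes the acute-phase protein lipocalin-2, was at 238, 209 and 237 CPM in WT LPS replicates 2, 3 and 4 but at 0.641 CPM in WT LPS replicate 1, and at 0 to 0.119 CPM in KO LPS, 0.0237 to 0.302 CPM in KO PBS and 0.0533 to 0.261 CPM in WT PBS. WT LPS replicate 1 therefore stands apart from its group. Counts of genes called, the members' fold changes, their shares of the endothelial sum and the order of levels are given with all 16 libraries and then without these 2 doubted libraries. Leaving them out was chosen after seeing the data. WT LPS replicate 1 was doubted for its low Lcn2, so larger differences of WT LPS without it follow in part from that choice. They add no separate support. The KO LPS libraries, with Lcn2 lower still, were all kept. The title of WT LPS replicate 1 shares a code of unstated meaning with 1 library of WT PBS, replicate 4, while WT LPS replicates 2, 3 and 4 share another code with the library of KO PBS replicate 4. The KO LPS codes, B1, B1, C6 and H3, occur in no other group. Differences between KO LPS and any other group, and the interaction, therefore cannot be told apart from differences between codes. KO PBS and WT PBS share no code either.

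**Figure D1:**
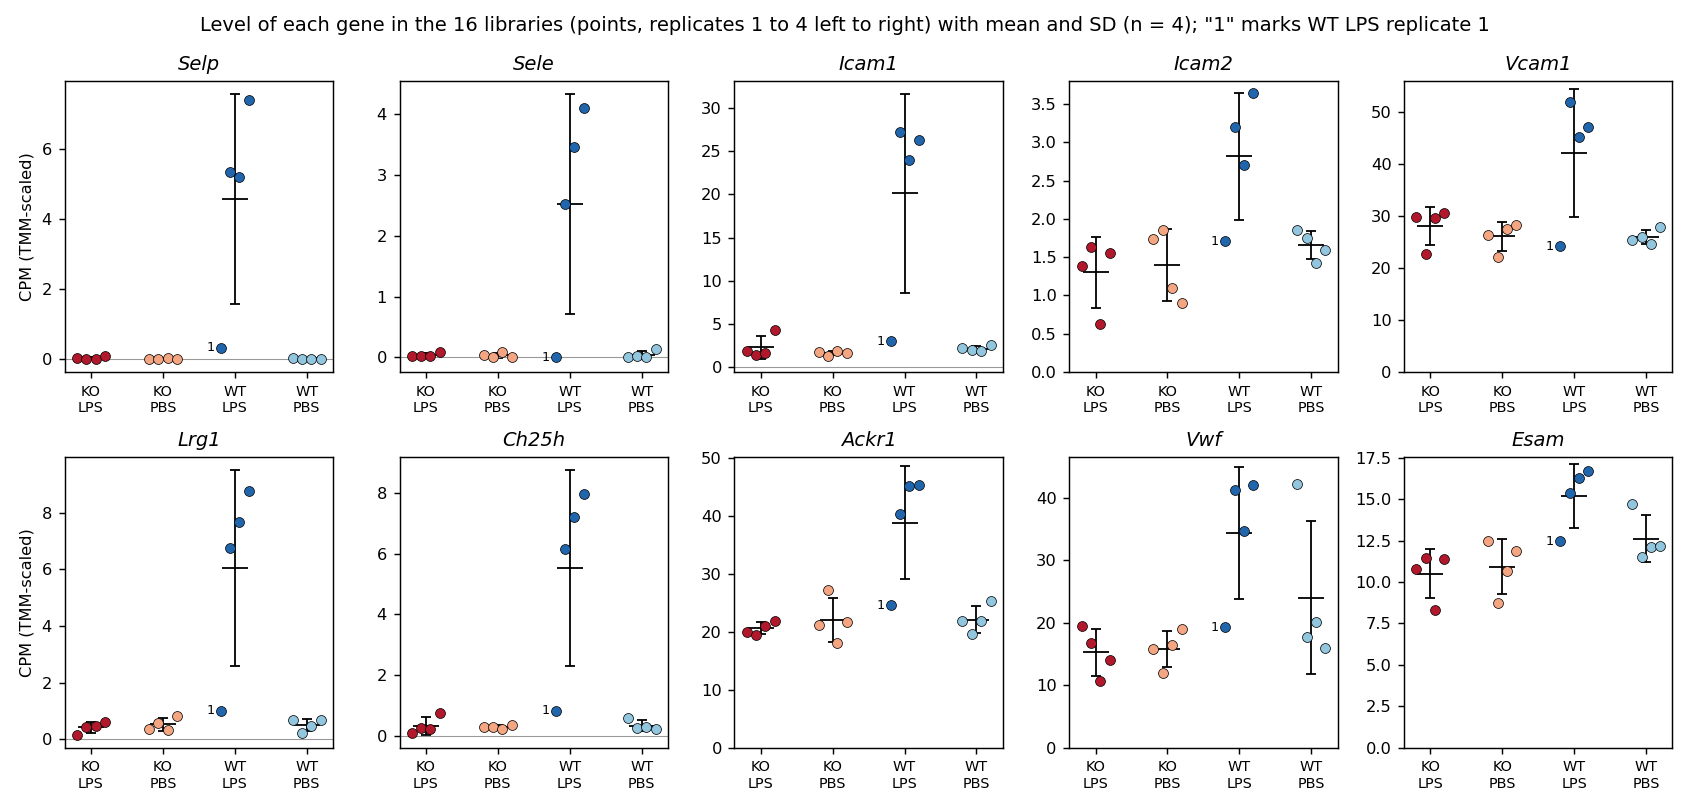
Level of each of the 10 genes in CPM (vertical axes, one panel a gene) in the 16 libraries, with KO LPS, KO PBS, WT LPS and WT PBS from left to right, and points for libraries with the group mean and SD. In WT LPS, Icam1 was at 23.9 to 27.2 CPM in replicates 2, 3 and 4 and at 3.05 CPM in replicate 1, and Vwf had 1 high library in WT PBS at 42.2 CPM.

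The selectin genes were close to absent from every hippocampus library except those of WT LPS. Selp (ENSMUSG00000026580) had 1, 0, 0 and 2 counts in KO LPS and 0, 0, 1 and 0 counts in KO PBS, against 10, 266, 177 and 291 counts in WT LPS and 1, 0, 0 and 0 counts in WT PBS. All 4 WT LPS libraries lay above the other 12, replicate 1 by the smallest margin, at 0.305 CPM beside 5.32, 5.20 and 7.37 CPM in replicates 2, 3 and 4. The sum of Selp counts was 744 in WT LPS and 1 in WT PBS, a ratio of 644 with a 95% exact binomial counting interval of 115 to 25482. In KO LPS the sum was 3 counts, against 744 in WT LPS, and the WT LPS level was 242 times the KO LPS level (counting interval 82.3 to 1174).

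Sele (ENSMUSG00000026582) had 1, 1, 1 and 3 counts in KO LPS and 2, 0, 3 and 0 in KO PBS, against 0, 126, 118 and 162 in WT LPS and 0, 1, 0 and 5 in WT PBS. WT LPS replicate 1 had none, so the groups overlapped, while WT LPS replicates 2, 3 and 4 were at 2.52, 3.47 and 4.11 CPM. The summed counts were 406 in WT LPS and 6 in WT PBS, a ratio of 58.6 (counting interval 26.7 to 161). Between KO LPS and KO PBS, with 6 and 5 counts, the ratio was 1.11 with an interval of 0.282 to 4.59. Sele was the 1 gene of the 10 that did not pass the filter on low counts and so was not tested with the rest. With no filter it was higher in WT LPS than in WT PBS by 5.75 ± 1.14 on the log2 scale (SE, edgeR adjusted p = 0.00857), where 4.05% of all genes were higher. It was lower in KO LPS than in WT LPS, at -5.87 ± 1.14 (edgeR adjusted p = 0.00642), where 6.13% of all genes were lower. Sele lies at 164048234-164057677 and Selp at 164115264-164150026 on the plus strand of chromosome 1 (GENCODE M21, GRCm38), 57.6 kb apart.

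Among the immunoglobulin-family adhesion genes, Icam1 (chromosome 9, 21015985-21028817, plus strand) had the largest fitted log2 differences. Icam1, the ligand of the leukocyte integrins LFA-1 and Mac-1, was at 1.95, 1.46, 1.62 and 4.32 CPM in KO LPS and 1.78, 1.33, 1.88 and 1.64 CPM in KO PBS, against 3.05, 27.2, 23.9 and 26.3 CPM in WT LPS and 2.29, 2.02, 1.86 and 2.56 CPM in WT PBS. Every WT LPS library exceeded every WT PBS library, but KO LPS replicate 4 was above WT LPS replicate 1. Icam1 rose in WT LPS relative to WT PBS by 3.20 ± 0.51 on the log2 scale (SE, edgeR adjusted p = 0.00343) and was lower in KO LPS than in WT LPS, at -3.11 ± 0.51 (adjusted p = 0.00357).

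Vcam1 (chromosome 3, 116109949-116129688, minus strand), which binds the integrin VLA-4, was at 29.7, 22.6, 29.5 and 30.5 CPM in KO LPS and 26.4, 22.1, 27.5 and 28.2 CPM in KO PBS, against 24.2, 51.8, 45.2 and 47.0 CPM in WT LPS and 25.4, 25.9, 24.6 and 27.8 CPM in WT PBS. The WT LPS libraries with high Lcn2, replicates 2, 3 and 4, were above all others, and replicate 1 was below every WT PBS library. Vcam1 rose by 0.70 ± 0.18 in WT LPS over WT PBS (adjusted p = 0.0238) and was lower in KO LPS than in WT LPS, at -0.59 ± 0.17 (adjusted p = 0.0417). The first call was lost without WT PBS replicate 2 or 3 or without WT LPS replicate 2, 3 or 4, each taken out alone, with adjusted p from 0.0662 to 0.0779. The second was lost in 12 of the 16 fits that left out 1 library.

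Icam2 (chromosome 11, 106377656-106388075, minus strand) encodes a ligand of LFA-1 that resting endothelium carries. It was at 1.39, 1.63, 0.631 and 1.55 CPM in KO LPS and 1.73, 1.85, 1.09 and 0.906 CPM in KO PBS, against 1.71, 3.20, 2.70 and 3.65 CPM in WT LPS and 1.86, 1.75, 1.43 and 1.60 CPM in WT PBS. All 4 KO LPS libraries lay below all 4 WT LPS libraries. The difference between KO LPS and WT LPS was -1.11 ± 0.30 (adjusted p = 0.0288), and that between WT LPS and WT PBS was 0.77 ± 0.30 (adjusted p = 0.128), which became 0.94 (adjusted p = 0.034) without WT LPS replicate 1.

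Esam (chromosome 9, 37528078-37538319, plus strand), a tight-junction molecule of endothelium and platelets, had the smallest fitted difference between KO LPS and WT LPS of the 9 tested genes. It was at 10.8, 11.4, 8.33 and 11.4 CPM in KO LPS and 12.5, 8.74, 10.6 and 11.8 CPM in KO PBS, against 12.5, 15.4, 16.3 and 16.7 CPM in WT LPS and 14.7, 11.5, 12.1 and 12.2 CPM in WT PBS. KO LPS and WT LPS did not overlap, and Esam was lower in KO LPS, at -0.53 ± 0.13 on the log2 scale (adjusted p = 0.0199). WT LPS and WT PBS overlapped, with a difference of 0.27 ± 0.13 (adjusted p = 0.23).

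The gene of the secreted protein and that of the oxysterol enzyme followed the steep pattern of Icam1. Lrg1 (chromosome 17, 56119678-56122001, minus strand) was at 0.17, 0.439, 0.466 and 0.596 CPM in KO LPS and 0.356, 0.576, 0.336 and 0.839 CPM in KO PBS, against 1.01, 6.74, 7.67 and 8.77 CPM in WT LPS and 0.667, 0.211, 0.465 and 0.666 CPM in WT PBS. Ch25h (chromosome 19, 34473778-34475164, minus strand) was at 0.0973, 0.244, 0.219 and 0.745 CPM in KO LPS and 0.285, 0.303, 0.224 and 0.369 CPM in KO PBS, against 0.825, 6.14, 7.20 and 7.96 CPM in WT LPS and 0.58, 0.241, 0.299 and 0.213 CPM in WT PBS. For both genes the WT LPS libraries lay above all 12 others, with replicate 1 close to them. Lrg1 rose in WT LPS over WT PBS by 3.58 ± 0.57 and Ch25h by 4.04 ± 0.64 (both adjusted p = 0.00343). In KO LPS relative to WT LPS, Lrg1 was at -3.86 ± 0.58 and Ch25h at -4.10 ± 0.64 (both adjusted p = 0.00308).

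Ackr1 (chromosome 1, 173331886-173333750, minus strand) carried a raised level in WT LPS on a high base. It was at 20.04, 19.5, 21.1 and 21.8 CPM in KO LPS and 21.1, 27.2, 18 and 21.7 CPM in KO PBS, against 24.6, 40.3, 45.2 and 45.3 CPM in WT LPS and 21.8, 19.6, 21.8 and 25.3 CPM in WT PBS. KO LPS lay below WT LPS in full, and WT LPS replicate 1 lay inside the WT PBS range. Ackr1 rose by 0.81 ± 0.16 in WT LPS over WT PBS (adjusted p = 0.00881) and was lower in KO LPS than in WT LPS, at -0.92 ± 0.16 (adjusted p = 0.00462). The level of Ackr1 is uncertain, because the gene overlaps Cadm3, a neuronal adhesion gene on the same strand, by 493 bases. Its 3 transcripts share 7.66%, 23.5% and 51.1% of their 31-base words with Cadm3, which averaged 470 CPM in KO LPS, 472 in KO PBS, 468 in WT LPS and 461 in WT PBS. The fitted difference of Cadm3 was 0.02 ± 0.09 between WT LPS and WT PBS. Antisense genes overlap Selp, Icam1, Vcam1 and Ch25h, and the counting's strand setting was not given in those sources, so reads from such partners cannot be told apart.

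Vwf (chromosome 6, 125546774-125686679, plus strand) was at 19.5, 16.8, 10.7 and 14.1 CPM in KO LPS and 15.8, 11.95, 16.4 and 18.96 CPM in KO PBS, against 19.3, 41.3, 34.8 and 42.0 CPM in WT LPS and 42.2, 17.8, 20.1 and 16.03 CPM in WT PBS. WT PBS replicate 1 was the highest of the 16 libraries, and WT LPS replicate 1 was below the highest KO LPS library. Vwf was lower in KO LPS than in WT LPS, at -1.17 ± 0.31 (adjusted p = 0.0245). The difference between WT LPS and WT PBS was 0.52 ± 0.30 (adjusted p = 0.32), and without WT PBS replicate 1 it was 0.94 (adjusted p = 0.0353). That library also had the highest summed level of red blood cell genes, 1087 CPM beside 355 CPM in the lowest WT PBS library, and of smooth muscle genes, 65.6 CPM beside 35.8 CPM. The part of blood or larger vessels in its Vwf level was not tested.

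**Figure D2:**
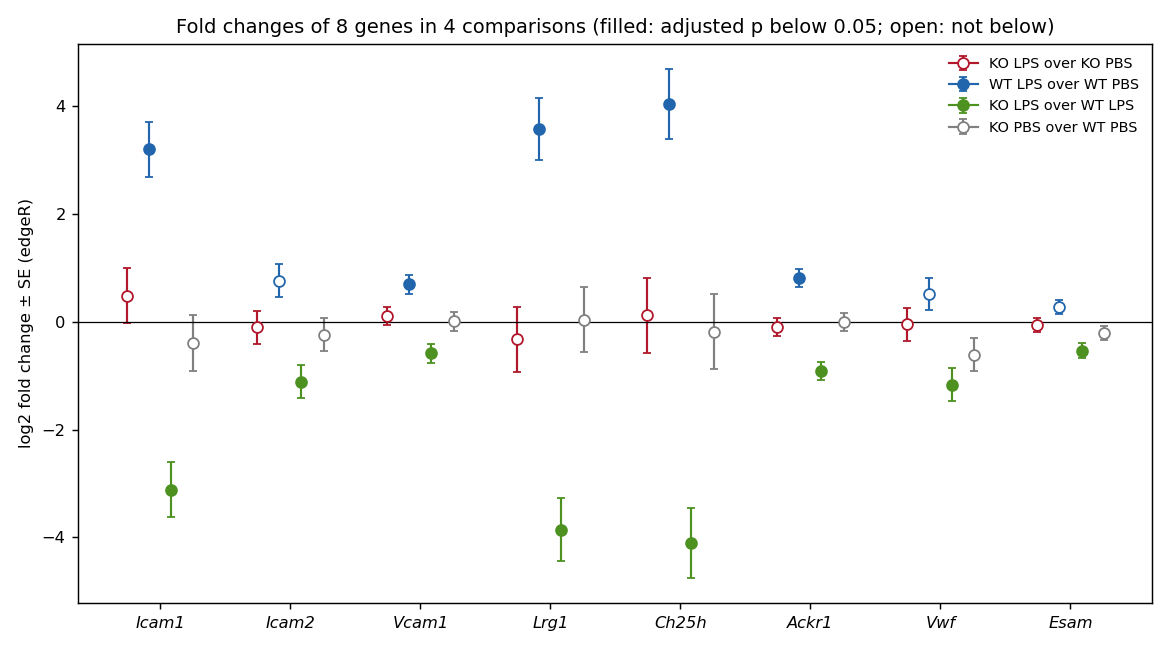
Fitted log2 fold change with its SE (vertical axis) of the 8 members other than Selp and Sele in 4 comparisons, each named with its numerator first. Filled points passed an edgeR adjusted p of 0.05, and such points are found only in WT LPS against WT PBS (5 genes) and in KO LPS against WT LPS (all 8 genes).

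Counted together, 6 of the 9 tested genes rose in WT LPS relative to WT PBS and 0 fell (edgeR quasi-likelihood test), where 4.72% of all 16269 genes tested rose and 3.85% fell. Fitted on these 8 libraries alone, the fold changes were nearly the same, such as 3.20 ± 0.59 for Icam1 and 3.57 ± 0.65 for Lrg1. None of the 6 calls held in that fit, with adjusted p from 0.0835 to 0.131, and 0% of all genes were called. Those 6 were Selp, Icam1, Vcam1, Lrg1, Ch25h and Ackr1. Selp passed the filter on low counts through its WT LPS libraries alone and so had to differ, and the count over the 8 others was 5. Their median log2 fold change was 0.79, against 0.002 over all genes. In 4 genes, Selp, Icam1, Lrg1 and Ch25h, all 4 WT LPS libraries were above every WT PBS library, as held for 4.22% of all genes. Selp is counted there although it had to differ. WT LPS replicate 1 was above the WT PBS range for those 4 genes, inside it for 5 and below it for Vcam1. Compared with WT PBS replicate 4, whose title carries the same code, WT LPS replicate 1 differed in log2 CPM by 0.25 for Icam1, -0.20 for Vcam1, 0.56 for Lrg1, -0.04 for Ackr1 and 1.72 for Ch25h. With the title code as a block, which rests on that pair alone, 0 of 9 genes and 0% of all genes passed. Without the 2 doubted libraries 7 of 9 passed, or 6 of 8 without Selp, where 10.2% of all genes were higher. The fold changes were then 3.56 ± 0.29 for Icam1, 0.89 ± 0.11 for Vcam1, 3.92 ± 0.39 for Lrg1, 4.40 ± 0.47 for Ch25h, 0.98 ± 0.12 for Ackr1 and 0.94 ± 0.29 for Icam2. Vwf was at 0.71 ± 0.30 (adjusted p = 0.112) and Esam at 0.35 ± 0.13 (adjusted p = 0.0693).

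In the knockout none of the 9 genes passed between KO LPS and KO PBS (0 of 9 with edgeR, 0 with DESeq2, and 0 at an unadjusted p under 0.05), and the share of all genes was 0%. Over all genes 1120 had an unadjusted p under 0.05, and DESeq2 called 3, or 0.0184%. The differences of the 8 genes other than Selp ran from -0.32 ± 0.60 for Lrg1 to 0.48 ± 0.51 for Icam1, with a median of -0.05 and adjusted p from 0.817 to 0.976. For Vcam1, Ackr1 and Esam the SE was at most 0.18. For Icam1, Lrg1 and Ch25h it was 0.51 to 0.70, so that a moderate change in those genes was not detectable at this spread. The fit estimates the spread over all 16 libraries, WT LPS replicate 1 among them, and its source was not tested. Selp had 3 and 1 counts and is given no fold. KO LPS replicate 4 was the highest library of its group for 7 of the 10 genes, among them Icam1 at 4.32 CPM and Ch25h at 0.745 CPM. With the library labelled KO PBS replicate 1 and WT LPS replicate 1 both left out, 0 of 9 passed again, where 0% of all genes did.

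Between KO LPS and WT LPS all 9 tested genes were lower in KO LPS, where 7.28% of all genes were lower, and the count without Selp was 8 of 8. The median of those 8 was -1.14, against -0.002 over all genes, and the range was -4.10 for Ch25h to -0.53 for Esam. KO LPS and WT LPS share no title code, so genotype and code cannot be told apart here. In 6 genes, Selp, Icam2, Lrg1, Ch25h, Ackr1 and Esam, every KO LPS library was below every WT LPS library, as held for 6.98% of all genes. Of these, Selp had to differ. As shares of the endothelial sum, given below, the groups overlapped for Ackr1 and Esam. The calls of Icam1, Selp, Lrg1, Ch25h and Ackr1 held in each of the 16 fits that left out 1 library, and those of Icam2, Vcam1, Vwf and Esam did not. The count was 5 without WT LPS replicate 3, 5 without WT LPS replicate 4 and 5 without KO LPS replicate 3, where 3.69%, 4.01% and 3.61% of all genes were lower. In each of these fits it was 4 of 8 without Selp. Without the 2 doubted libraries it was 9, or 8 of 8 without Selp, where 12.7% of all genes were lower. The values were then -3.47 ± 0.29 for Icam1, -1.29 ± 0.29 for Icam2, -0.78 ± 0.11 for Vcam1, -4.21 ± 0.39 for Lrg1, -4.47 ± 0.46 for Ch25h, -1.08 ± 0.12 for Ackr1, -1.36 ± 0.30 for Vwf and -0.62 ± 0.13 for Esam, with adjusted p of 0.00688 or less for each.

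Between KO PBS and WT PBS none of the 9 genes passed (0 with edgeR, 0 with DESeq2, and 0 at an unadjusted p under 0.05), where 0.0369% of all genes did. Over all genes 841 had an unadjusted p under 0.05, and DESeq2 called 17, or 0.104%. Apart from Selp, with 1 count in each group, differences ran from -0.61 ± 0.31 for Vwf to 0.04 ± 0.60 for Lrg1, with a median of -0.19 and adjusted p from 0.918 to 0.997. The Vwf value includes WT PBS replicate 1, and the count includes the library labelled KO PBS replicate 1. The count was also 0 without it and WT LPS replicate 1, where 0.0553% of all genes passed.

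The test of whether the LPS effect differed between the genotypes is the interaction, the log2 effect in KO minus that in WT. Of the 9 genes 1 passed, Lrg1 at -3.90 ± 0.82 (adjusted p = 0.04997), where 0.596% of all genes passed in that direction. Icam1 was at -2.72 ± 0.71 (adjusted p = 0.0637), Ch25h at -3.92 ± 0.94 (adjusted p = 0.0532) and Ackr1 at -0.91 ± 0.23 (adjusted p = 0.0596). Vcam1, Icam2, Vwf and Esam were at -0.59 ± 0.25, -0.87 ± 0.43, -0.56 ± 0.43 and -0.33 ± 0.19, with adjusted p from 0.183 to 0.47. DESeq2 called 5 of the 9, or 4 of the 8 other than Selp, where it called 4.52% of all genes in that direction. The Lrg1 call was lost in 13 of the 16 fits that left out 1 library. It was lost too under RLE scaling, with no filter, with the replicate block and with WT PBS replicates 2 and 3 summed. Without WT LPS replicate 1, 5 genes passed, where 8.75% of all genes did in that direction, with Icam1 at -3.08 (adjusted p = 0.000162), Lrg1 at -4.25 (adjusted p = 0.000207), Ackr1 at -1.08 (adjusted p = 0.000481), Ch25h at -4.28 (adjusted p = 0.000792) and Vcam1 at -0.78 (adjusted p = 0.00228). With the library labelled KO PBS replicate 1 also left out, 6 passed, or 5 of the 8 other than Selp, where 7.9% of all genes did in that direction.

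Levels of different genes were compared as CPM per kilobase of the longest annotated transcript. In WT LPS the order was Ackr1 (33.7, uncertain because of its overlap with Cadm3), Vcam1 (10.3), Esam (8.15), Icam1 (7.93), Lrg1 (4.29), Ch25h (3.99), Vwf (3.89), Icam2 (2.20), Selp (1.32) and Sele (0.866). In WT PBS it was Ackr1 (19.2), Esam (6.76), Vcam1 (6.35), Vwf (2.72), Icam2 (1.29), Icam1 (0.861), Lrg1 (0.357), Ch25h (0.24), Sele (0.014) and Selp (0.00211). Icam1 stood in place 4 in WT LPS and place 6 in WT PBS, and Vwf in place 7 and place 4. Icam1 stood in place 3 in WT LPS without the 2 doubted libraries, at 10.2, ahead of Esam at 8.64, and the KO PBS order was unchanged. Neighbours in the WT LPS order below Ackr1 had overlapping ranges. In WT PBS the ranges of Esam and Vcam1, of Lrg1 and Ch25h and of Sele and Selp overlapped. With exon-union lengths Esam stood ahead of Vcam1 in WT LPS, KO LPS and KO PBS too, so their order there depends on the length used. In KO LPS and KO PBS Ackr1, Vcam1 and Esam led, at 17.9, 6.87 and 5.63 in KO LPS and 19.1, 6.37 and 5.86 in KO PBS, and Sele and Selp were last, at 0.0142 and 0.0061 in KO LPS and 0.0113 and 0.00204 in KO PBS.

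**Figure D3:**
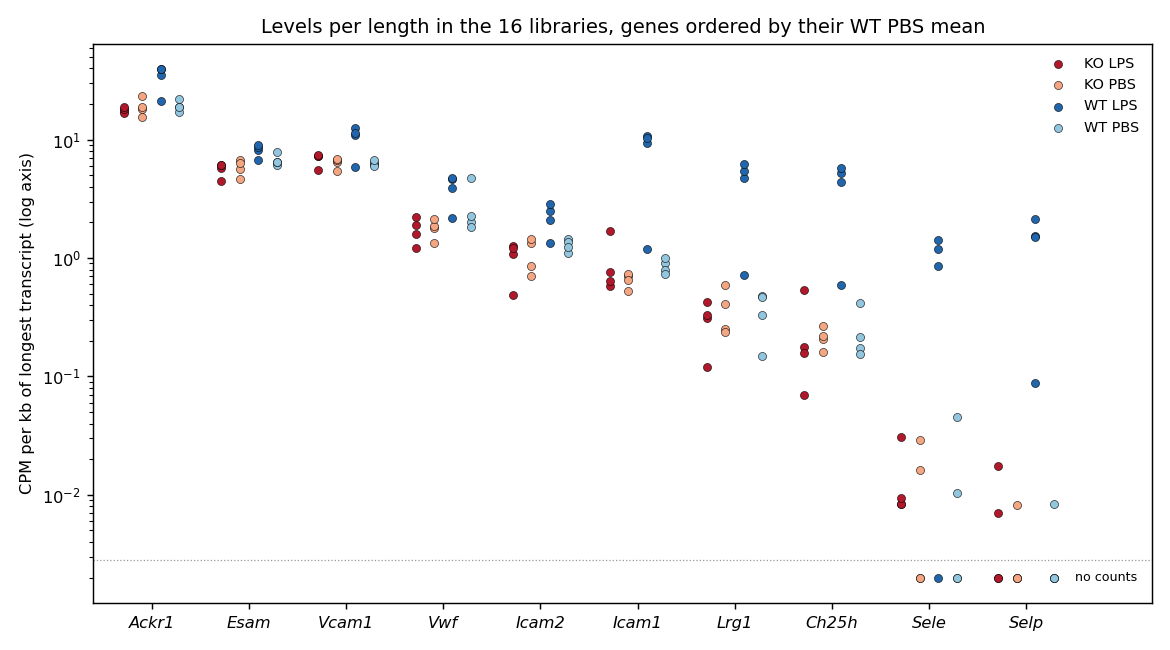
Level per kilobase of the longest transcript (log axis, CPM per kb) of each gene, with KO LPS, KO PBS, WT LPS and WT PBS in that order and points for libraries; libraries with no counts are in a row of their own. Ackr1, whose level is uncertain because of Cadm3, was the highest in each group, and outside WT LPS the lowest were Sele and Selp.

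In whole hippocampus, fewer cells of a type and less RNA per cell cannot be told apart, so the members were also set against 18 genes of endothelial identity such as Pecam1, Cdh5 and Cldn5, of which none was at 0 in any group. Their summed level was 379 to 457 CPM in KO LPS and 374 to 446 CPM in KO PBS, against 449 to 576 CPM in WT LPS and 446 to 563 CPM in WT PBS. The knockout libraries were at the low end of the wild-type range or below it under either injection, and its part in the member differences was not tested. As a percent of that sum, Icam1 was 0.557 ± 0.309 in KO LPS and 0.409 ± 0.0544 in KO PBS, against 3.77 ± 2.06 in WT LPS and 0.449 ± 0.0839 in WT PBS (SD, n = 4 each). Vcam1 was 6.76 ± 1.25 in KO LPS and 6.42 ± 0.397 in KO PBS, against 8.05 ± 1.81 in WT LPS and 5.35 ± 0.709 in WT PBS. On this measure WT LPS replicate 1, at 5.40, was again apart from replicates 2, 3 and 4 at 8.99, 9.35 and 8.48. The WT LPS shares without the 2 doubted libraries were 4.80 ± 0.126 for Icam1 and 8.94 ± 0.437 for Vcam1, and the KO PBS shares 0.397 ± 0.0592 and 6.35 ± 0.458 (SD, n = 3 each).

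Icam2 was 0.305 ± 0.0934 percent of the endothelial sum in KO LPS and 0.351 ± 0.137 in KO PBS, against 0.538 ± 0.115 in WT LPS and 0.339 ± 0.0308 in WT PBS, and all WT LPS values lay above all WT PBS values. Esam was 2.49 ± 0.209 in KO LPS and 2.69 ± 0.333 in KO PBS, against 2.96 ± 0.31 in WT LPS and 2.58 ± 0.132 in WT PBS. On this scale KO LPS and WT LPS overlapped for Esam, with KO LPS up to 2.672 and WT LPS from 2.666. They overlapped for Ackr1 too, up to 5.56 in KO LPS and from 5.47 in WT LPS. For Icam2, Selp, Lrg1 and Ch25h they stayed apart. Vwf was 3.63 ± 0.795 in KO LPS and 3.87 ± 0.465 in KO PBS, against 6.56 ± 1.52 in WT LPS and 4.77 ± 1.84 in WT PBS. WT PBS replicate 1, at 7.51, stood apart for Vwf on this scale too. The corresponding WT LPS shares without those 2 libraries were 0.591 ± 0.0584 for Icam2, 3.02 ± 0.35 for Esam and 7.31 ± 0.233 for Vwf, and the KO PBS shares 0.323 ± 0.153, 2.54 ± 0.18 and 3.84 ± 0.565.

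**Figure D4:**
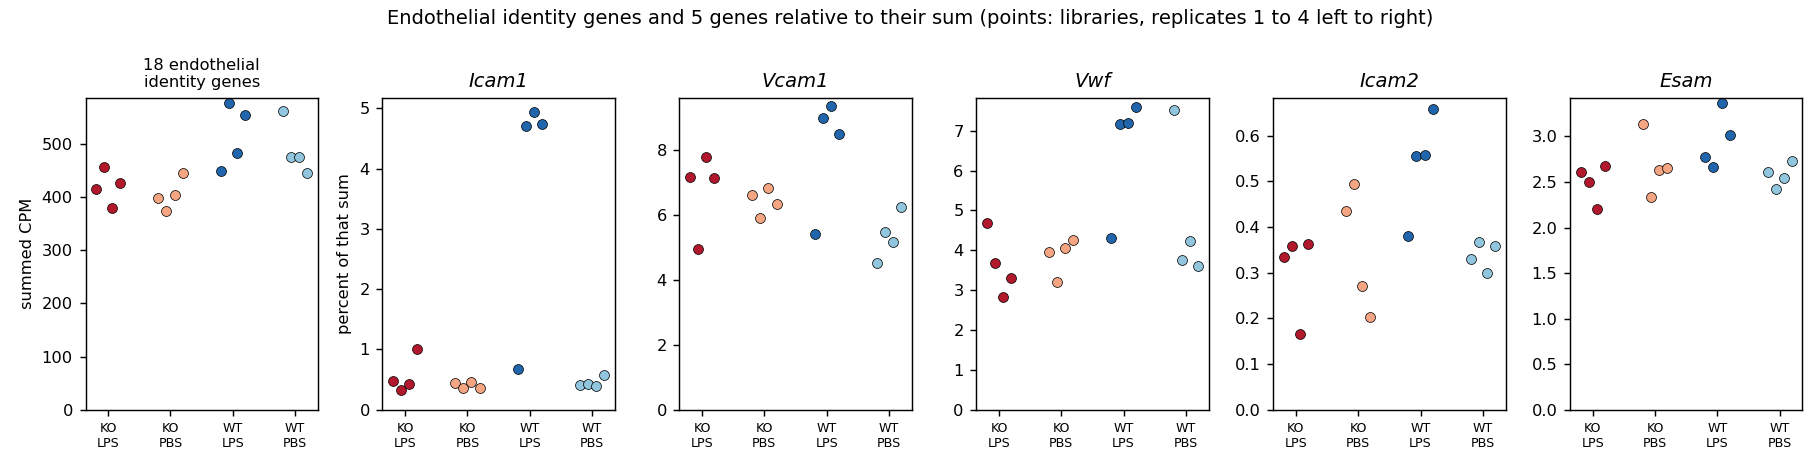
Summed CPM of 18 endothelial identity genes, and Icam1, Vcam1, Vwf, Icam2 and Esam as a percent of that sum (vertical axes), in KO LPS, KO PBS, WT LPS and WT PBS from left to right, with points for libraries. The Icam1 share reached 4.94% in WT LPS and stayed at or below 0.573% in WT PBS.

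Endothelial identity genes themselves were mixed: of 18 tested, 2 rose and 4 fell in WT LPS relative to WT PBS (median 0.06), and 5 were lower and 0 higher in KO LPS than in WT LPS (median -0.34). Over all 16269 genes tested, 768 rose and 626 fell in the first comparison, and 1185 were lower and 750 higher in the second. With the 2 doubted libraries left out, 4 rose and 5 fell in the first comparison, and 9 were lower and 1 higher in the second. Over all genes 1666 rose and 1489 fell in that fit, and 2060 were lower and 1751 higher. These totals stand beside every list that follows, and a list count near their share is no result about the list. Between KO PBS and WT PBS 0 of the 18 passed, but all 18 were lower in KO PBS, from -0.51 to -0.04. The median there was -0.25, against 0.005 over all genes. Ly6c1, a surface protein of brain endothelium, rose by 1.33 ± 0.27 in WT LPS (adjusted p = 0.00974) and was at -1.62 ± 0.28 in KO LPS relative to WT LPS (adjusted p = 0.00381). Ptprb, the phosphatase VE-PTP, and Flt1, the receptor VEGFR1, fell in WT LPS, at -0.95 ± 0.23 (adjusted p = 0.0205) and -0.68 ± 0.18 (adjusted p = 0.0288). Of 5 vein and venule genes 1 rose in WT LPS, Tmem252, at 1.9 ± 0.47 (adjusted p = 0.0215), and 2 were lower in KO LPS than in WT LPS, Tmem252 at -2.50 ± 0.48 and Il1r1, the interleukin-1 receptor, at -0.56 ± 0.16. Of 8 artery genes 0 passed in WT LPS and 1, Sema3g, was lower in KO LPS than in WT LPS, at -1.09 ± 0.30 (adjusted p = 0.0289). Of 6 capillary genes, Slc16a1, a lactate transporter, fell in WT LPS, at -0.44 ± 0.10 (adjusted p = 0.0125), and Mfsd2a, a lipid transporter of the blood-brain barrier, was lower in KO LPS than in WT LPS, at -0.87 ± 0.20 (adjusted p = 0.0151). In the fit that left out the 2 doubted libraries, 2 vein genes rose and 1 fell in WT LPS, with 1 higher and 3 lower in KO LPS than in WT LPS. Of artery genes 1 rose and 1 fell in WT LPS, with 1 higher and 1 lower in KO LPS than in WT LPS. Of capillary genes 1 rose and 2 fell in WT LPS, with 1 higher and 1 lower in KO LPS than in WT LPS.

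Of 19 genes of cytokine and LPS reception and NF-kappaB signalling, 9 rose and 0 fell in WT LPS relative to WT PBS (median 0.56), and 9 were lower and 0 higher in KO LPS than in WT LPS (median -0.56). Socs3, a feedback inhibitor of cytokine signalling, averaged 2.29 CPM in KO LPS and 1.36 in KO PBS, against 8.42 in WT LPS and 2.62 in WT PBS, a rise of 1.69 ± 0.29 in WT LPS over WT PBS (adjusted p = 0.00455). The TNF receptor gene Tnfrsf1a rose by 1.18 ± 0.22 and the LPS co-receptor gene Cd14 by 1.74 ± 0.33 (both adjusted p = 0.00649). Of 14 Weibel-Palade, coagulation and vessel-tone genes, 3 rose in WT LPS and 4 were lower in KO LPS than in WT LPS. Procr, the endothelial protein C receptor gene, was 2.02 ± 0.50 higher in WT LPS than in WT PBS, Mmrn2 0.74 ± 0.19 and the endothelial nitric oxide synthase gene Nos3 0.82 ± 0.23 (adjusted p from 0.0219 to 0.0377). When the 2 doubted libraries were left out, 13 of 19 reception and signalling genes rose in WT LPS and 15 were lower in KO LPS than in WT LPS, and 5 of 14 Weibel-Palade, coagulation and vessel-tone genes rose and 5 were lower. With all libraries or without those 2, none of these lists held a gene that passed between KO LPS and KO PBS or between KO PBS and WT PBS in edgeR.

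On the leukocyte side, 3 of 13 tested genes of counter-receptors and selectin ligands rose in WT LPS, all of them genes of integrin chains that bind ICAM-1. In KO LPS relative to WT LPS 2 were lower and 1 was higher. Itgb2 averaged 4.42 CPM in KO LPS and 4.20 in KO PBS, against 12.2 in WT LPS and 4.31 in WT PBS, a rise of 1.5 ± 0.31 (adjusted p = 0.01). Itgam rose by 1.29 ± 0.27 (adjusted p = 0.0107) and Itgal by 1.16 ± 0.34 (adjusted p = 0.0476); microglia also express Itgb2 and Itgam. Among 14 other adhesion and junction genes, Pvr rose in WT LPS, at 0.60 ± 0.15, while Jam2 and Mcam fell, at -0.62 ± 0.11 and -0.82 ± 0.20 (adjusted p from 0.00455 to 0.0225). In the fit without the 2 doubted libraries, 4 counter-receptor and ligand genes rose and 1 fell in WT LPS, with 1 higher and 5 lower in KO LPS than in WT LPS. Of the junction genes 3 rose and 4 fell in WT LPS, with 5 higher and 4 lower in KO LPS than in WT LPS. Over all 16269 genes that fit had 1666 higher and 1489 lower in WT LPS. It had 1751 higher and 2060 lower in KO LPS than in WT LPS.

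Markers of other cells were read beside the members. The summed level of 15 neutrophil, monocyte and lymphocyte genes was 2.63 to 4.17 CPM in KO LPS and 2.41 to 2.97 CPM in KO PBS, against 4.06 to 20.5 CPM in WT LPS and 2.40 to 3.22 CPM in WT PBS. It moved with the members, and its part in their levels was not tested. Of the 15 genes 6 were tested and 4 rose in WT LPS, where 4.72% of all genes rose. Genes near 0 outside WT LPS, such as S100a8 and S100a9, could pass the filter on low counts mainly through WT LPS. A rise of such genes was favoured in advance, so this count adds no support. S100a8 and S100a9, calcium-binding proteins of neutrophils, averaged 0.305 and 0.376 CPM in KO LPS and 0.0698 and 0.109 CPM in KO PBS, against 2.71 and 3.87 CPM in WT LPS and 0.0635 and 0.183 CPM in WT PBS. The defining genes Camp and Mmp8 had no counts in KO PBS. The 8 platelet genes listed summed to 2.83 to 3.24 CPM in KO LPS and 2.91 to 3.75 CPM in KO PBS, against 2.96 to 3.67 CPM in WT LPS and 3.02 to 4.10 CPM in WT PBS, and 0 of 3 tested genes passed. Without the 2 doubted libraries, 5 of the 6 leukocyte genes rose in WT LPS, where 10.2% of all genes rose. In KO LPS relative to WT LPS 4 of them and 1 of the 3 platelet genes were lower, where 12.7% of all genes were lower. The limit set by the filter holds for these leukocyte counts too.

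Of 8 microglia genes P2ry12, a receptor of homeostatic microglia, fell in WT LPS, at -1.35 ± 0.33 (adjusted p = 0.0217), and in KO LPS relative to WT LPS 2 were higher and 1 lower. Of 9 pericyte genes 2 fell in WT LPS, Rgs5 at -0.66 ± 0.10 (adjusted p = 0.00281) and Abcc9 at -0.33 ± 0.09 (adjusted p = 0.0282), and Rgs5 was higher in KO LPS than in WT LPS. Of 8 red blood cell genes 1 fell in WT LPS, Bpgm at -0.23 ± 0.06 (adjusted p = 0.0282). The median of the red blood cell list was -2.56 in WT LPS against WT PBS, with a range of -3.21 to -0.088, and -2.06 in KO PBS against WT PBS, and the other 7 genes did not pass. Its summed level was 256 to 460 CPM in KO LPS and 275 to 473 CPM in KO PBS, against 254 to 367 CPM in WT LPS and 355 to 1087 CPM in WT PBS. Smooth muscle (6 genes), meningeal and perivascular fibroblast (9), choroid plexus (8) and hippocampal neuron (10) lists had 0 genes that passed in WT LPS against WT PBS or in KO LPS against WT LPS. Their medians in WT LPS against WT PBS were -0.51, 0.26, -0.84 and 0.034 in that order. Without the 2 doubted libraries, 3 microglia genes rose and 2 fell in WT LPS, 3 pericyte genes fell, 1 smooth muscle gene fell, 1 fibroblast gene rose and 1 red blood cell gene fell. In KO LPS against WT LPS, 2 microglia genes were then higher and 1 lower, 1 pericyte and 1 smooth muscle gene were higher, and 1 fibroblast gene was lower. The totals over all genes to set beside these counts are those given with the endothelial identity genes. Choroid plexus genes varied widely between libraries, from 1354 to 3244 CPM in KO LPS and 1337 to 3332 CPM in KO PBS, against 143 to 1726 CPM in WT LPS and 172 to 4643 CPM in WT PBS. Choroid plexus vessels also carry adhesion molecules, and the part of that tissue in the member levels was not tested.

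Across the 16 libraries the members' log2 CPM values were alike to different degrees, a description that rests largely on WT LPS replicates 2, 3 and 4 and carries no test. Selp and Icam1 had a Pearson r of 0.975, and Icam2 and Vcam1 the lowest of all pairs, 0.577. The gene outside the set most like each member was Ifitm2 for Selp (r = 0.98), Irgm1 for Icam1 (0.98), Mafk for Vcam1 (0.97), H2-Q7 for Lrg1 (0.97), H2-T23 for Ch25h (0.97) and H2-D1 for Ackr1 (0.98). It was Helz2 for Esam (0.96), Myo1c for Icam2 (0.92) and Pecam1, an endothelial identity gene, for Vwf (0.91). The H2 and Ifitm genes belong to families of near-identical copies, so their counts are uncertain.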

How the data were processed

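Total RNA of mouse hippocampus was made into NEBNext Ultra libraries, per the labels' protocols. The deposited table holds an estimated count per gene and library, rounded to whole numbers by the authors. Tools listed in the submitters' processing notes, with no role, are Salmon 1.9.0, MultiQC 1.13, DESeq and DESeq2, and a genome build was not given in the sources used here. Groups and replicate numbers came from the titles and characteristics. Symbols and positions came from GENCODE M21 (GRCm38), where 105 identifiers with 0.0537% of the counts had no symbol, and promoter sequences from RefSeq (GRCm38.p6, without chromosome 18).

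The filterByExpr function (edgeR 4.0.16 in R 4.3.3) kept 16269 genes and removed 3180. Counts were scaled by TMM and fitted with edgeR's quasi-likelihood model over all 16 libraries, with Benjamini-Hochberg adjustment over all genes tested and a threshold of 0.05. The SE is the absolute log2 fold change over the square root of F, and log2 CPM has a prior count of 2. The fit was tested on simulated data. Alternatives were RLE scaling, no filter, DESeq2 1.42.0, a replicate block, a title-code block, the compared libraries alone, 1 library left out, and WT PBS replicates 2 and 3 summed. The summed libraries differed by a median chi-square of 0.839 per gene, against 2.00 to 13.4 in other pairs of a group, but beyond sampling noise on average (4.01), so they were kept as 2 libraries.

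The 10 genes and the 17 comparison lists were chosen with earlier results of these data known. Genes named were the 10 members, up to 3 genes of each list that passed in WT LPS against WT PBS or in KO LPS against WT LPS with the smallest p in the first, the gene most alike each tested member among those with a mean log2 CPM of at least 1, Tspo and Lcn2. Cadm3 was added for its position after values were seen. A gene withheld for evaluation is not reported here.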

Additional observations from a re-analysis of the deposited data

Results flagged for a closer look

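In groups of 4 libraries, 7 of 40 gene and group combinations had a highest or lowest library whose gap to the next exceeded Dixon's 95% critical value, where chance flags about 1 in 20 groups of measured values. That rate does not hold for 3 of the 7, Selp in KO PBS and WT PBS and Sele in KO LPS, whose counts are 0 to 3. In KO LPS, Icam1 had a high library in replicate 4 at 4.32 CPM, Sele in replicate 4 at 0.0894 CPM (3 counts), and Vcam1 a low library in replicate 2 at 22.6 CPM. In KO PBS, Selp was above 0 in replicate 3 alone, at 0.028 CPM, which is 1 count. In WT LPS, Icam1 had its low library in replicate 1, at 3.05 CPM. In WT PBS, Vwf had its high library in replicate 1, at 42.2 CPM, and Selp was above 0 in that library alone, at 0.029 CPM, which is again 1 count. The LPS effect on Lrg1 differed between knockout and wild type by -3.90 on the log2 scale (edgeR interaction, adjusted p = 0.04997). That call was lost in 13 of the 16 fits that left out 1 library and with WT PBS replicates 2 and 3 summed. It was lost too under RLE scaling (edgeR adjusted p = 0.0505), with no filter (adjusted p = 0.0552) and with the replicate block (adjusted p = 0.078). The values had 4 of 4 WT LPS libraries above all WT PBS libraries and KO LPS overlapping KO PBS.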

How the results depend on the processing

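Of 1035 recomputed member values, 64 lost their call, 19 gained one, 2 were classed as reversed and 950 as the same. The last class did not require a kept direction, and values with no call could cross 0. With 1 library left out, Ch25h ran from -0.65 to 0.43 and Icam2 from -0.26 to 0.12 in KO LPS against KO PBS. Lrg1 ran from -0.26 to 0.21 in KO PBS against WT PBS. Counts of members called, here and below, include Selp, which had to differ between WT LPS and the other groups. Members called in WT LPS over WT PBS (6) numbered 0 with the compared libraries alone, 0 with the title-code block and 5 to 7 with 1 library left out, and all genes called (1394) numbered 2096 with DESeq2, 0 with the compared libraries, 571 with WT PBS replicates summed, 0 with the title-code block, 3155 with both doubted libraries left out (an alternative chosen after seeing the data) and 545 to 3262 with 1 left out. With the title code as a block Ackr1 was at -0.041 and Vcam1 at -0.20. In KO LPS against WT LPS, members (9) numbered 5 with the compared libraries and 5 to 9 with 1 left out, and all genes (1935) numbered 437 with the compared libraries, 3811 with both doubted libraries out and 861 to 3913 with 1 left out. In KO LPS against KO PBS all genes (0) numbered 3 with DESeq2 and 0 to 1 with 1 left out, and members 0 to 0. In KO PBS against WT PBS all genes (6) numbered 17 with DESeq2, 3 with the replicate block, 1 with WT PBS replicates summed and 1 to 9 with 1 left out, and members 0 throughout. For the interaction, members (1) numbered 0 with RLE, 0 with no filter, 5 with DESeq2, 0 with the replicate block, 0 with the summed libraries, 6 with both doubted libraries out and 0 to 5 with 1 left out. All genes (187) numbered 63, 39, 1278, 0, 0, 2357 and 0 to 2590 under those settings in that order. The extremes of 3262, 3913 and 2590 were those without WT LPS replicate 1, and 545 and 861 those without WT PBS replicate 2 and WT LPS replicate 3. The fits on the compared libraries alone have fewer libraries to estimate the spread, and the cause of the other shifts was not tested.

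Same-numbered libraries deviated together with r from -0.232 to 0.364, the highest for replicate 1 of WT LPS and WT PBS. Such correlations cannot exclude a pairing, and the main fit used none. With the replicate block, members called numbered 6 in WT LPS over WT PBS and 8 in KO LPS against WT LPS, and all genes 1069 and 1619. Depth limits Selp and Sele outside WT LPS, where a group sum of 3 counts is 0.0192 to 0.0222 CPM. Lrg1 and Ch25h had low counts and a wide SE, and the part of the low counts in it was not tested. The 4 libraries of a group limit the rest.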
